A study of Mus musculus with 8 samples.

Results

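Common monocyte progenitors (cMoPs), the bone marrow cells that give rise to monocytes, were compared with their progeny, Ly6C+ classical monocytes, after both had spent 6 h on plain OP9 stroma. The comparison takes the 4 libraries of the 8 in the series whose labels name OP9 cells without a Notch ligand: 2 of cMoPs and 2 of Ly6C+ monocytes, described over every gene that passed a filter on low values. The title of the series names Bcl6, Irf2 and Notch2 in the development of nonclassical monocytes. Both cell types were sorted from the bone marrow of wild type mice and then placed on stroma, so the mouse genotype, the tissue, the sort and the 6 h of coculture are shared by both groups. OP9 is a stromal line from the bone marrow of a mouse without functional M-CSF and is used to support blood cells in culture. The remaining 4 libraries are the same cell types on OP9 cells that carry the Notch ligand DLL1 (OP9-DLL1), and they were used to estimate the spread between replicates and to test whether a difference depended on the stroma. No library of either cell type before coculture was analysed, so differences that the cells brought with them and differences that arose on the stroma cannot be told apart. How old the mice were, how many gave cells and how the cells were gated is not stated in the sources used here.

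A cMoP is a dividing cell that is committed to the monocyte lineage. It still transcribes genes of earlier myeloid progenitors, above all those of the primary granules, in which proteases and myeloperoxidase are stored. Ly6C+ monocytes enter blood through the chemokine receptor CCR2. They can become macrophages, dendritic cells or, through the transcription factor NR4A1, the nonclassical monocytes that patrol vessels.

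The deposited values are log2 CPM, where CPM is the reads of a gene scaled to a common library total. They are given below as CPM, and in every sentence with 4 values the order is replicate 1 and 2 of the cMoPs and replicate 1 and 2 of the monocytes. Whole reads could be recovered for 100% of the values (tolerance 0.001 of a read), and the 4 libraries held 47316323 to 62459962 reads in genes, so that 1 read was worth 0.0151 to 0.0231 CPM. The libraries were tested with limma-trend, a linear model on log2 values that lets the spread depend on a gene's level, and a gene passed where its p adjusted by Benjamini-Hochberg over all 13374 genes was under 0.05. A difference is always cMoP minus monocyte on the log2 scale. The replicates are numbered, but no label says that they came from separate mice or cultures, so the p-values measure the spread between these libraries, which may be technical. The monocyte pair stood apart: 1445 genes lay over 2-fold apart between its replicates, against 724 between the cMoP replicates and 752 and 804 in the OP9-DLL1 pairs. Genes of mitosis and of early progenitors were among those higher in monocyte replicate 2 than in replicate 1, and values that rest on one library are given with and without it. In bulk libraries fewer cells of a type and less RNA per cell cannot be told apart.

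The labels were compared with defining genes of each cell type. Of 10 genes that define cMoPs, 8 were higher in the library pair labelled cMoP (Kit, Cd34, Mpo, Elane, Prtn3, Ctsg, Ms4a3 and Ly6c2), Csf1r was lower and Mki67 did not pass. Of 8 genes that define Ly6C+ monocytes, 5 were lower in cMoPs (Ccr2, Csf1r, Itgam, Fcgr3 and Lyz2), while 3 were higher, Ly6c2 and Cx3cr1 among them. No gene of either set was at 0 reads in any of the 4 libraries.

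The cell types differed in most genes. With limma-trend 7550 of 13374 genes passed (56.5%), 3851 higher in cMoPs (28.8%) and 3699 lower (27.7%), and these shares are the background for every count of list members below. The median difference over all genes was 0.01, with 5% of genes below -2.59 and 5% above 2.20, and the median SE was 0.23. A difference over 2 (4-fold) was reached by 793 genes that passed higher (5.93%), and one below -2 by 987 that passed lower (7.38%). Beyond 3 and -3 these were 317 (2.37%) and 507 (3.79%). The cMoP libraries both lay above both monocyte libraries for 5342 genes (39.9%) and both lay below for 5144 (38.5%), so groups that do not overlap were common and are stated below as a description. Lists of genes for programmes of the progenitor, the cell cycle, the monocyte and metabolism are summarised in the plot of all lists, and each is then described from its members.

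**Figure D1:**
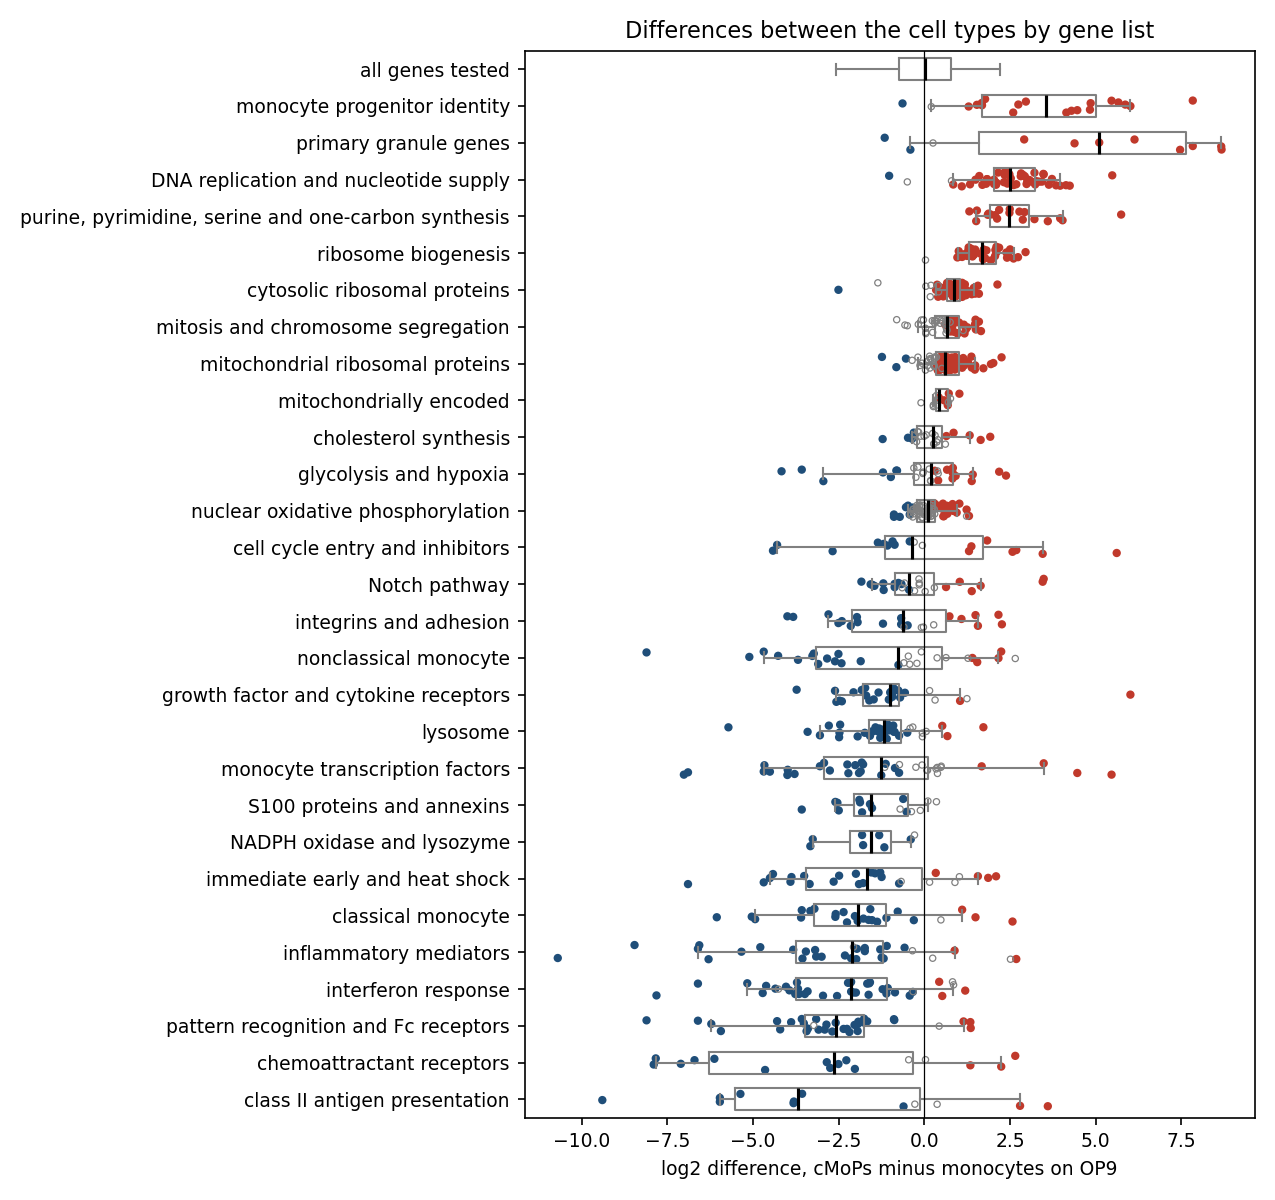
Log2 difference between cMoPs and Ly6C+ monocytes on OP9 (x axis, cMoP minus monocyte) for each gene list (y axis), with 1 point per gene tested (red passed higher, blue passed lower, open did not pass limma-trend), a box over the middle 50% of genes, a bar at the median and whiskers from the 5th to the 95th percentile. Progenitor, granule, replication and nucleotide synthesis lists lie to the right of 0 with medians of 2.48 to 5.10, mitosis lies near 0 with a median of 0.66, and receptor, interferon and inflammatory lists lie to the left.

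Genes of progenitor identity were higher in cMoPs almost throughout. Of 20 tested, 18 were higher, Cd93 was lower and Cd27 did not pass, with a median of 3.55 beside 0.01 over all genes. The median level of the list was -0.82 and -0.1 log2 CPM in the monocyte libraries, under 1 CPM. Members that low in monocytes passed the filter on low values through other libraries, which favours higher calls. With the filter at 5 CPM 14 members were tested, of which 13 were higher and 1 lower. Cd34, a surface sialomucin of progenitors (chr1:194938819-194961279, plus strand, GRCm38), stood at 138 and 159.6 CPM in cMoPs and 6.59 and 10.7 CPM in monocytes (log2 difference 4.14, SE 0.25, adjusted p = 2.6e-06). Myb, a transcription factor that keeps progenitors immature, stood at 20.9 and 23.2 CPM against 0.358 and 0.697 CPM (log2 difference 5.46, SE 0.34, adjusted p = 3e-06). Kit, the receptor for stem cell factor, was low in both cell types, at 4.71 and 6.2 CPM in cMoPs and 0.0577 and 0.121 CPM in monocytes (log2 difference 6.01, SE 1.26, adjusted p = 0.003). For all of these genes both cMoP libraries lay well above both monocyte libraries. The homeobox gene Hoxa9 was higher by 4.85 at 6.57 and 4.04 CPM against 0.127 and 0.251 CPM, Sox4 by 4.29 and the ETS factor Erg by 5.86 (5.13 without monocyte replicate 1 and 6.59 without monocyte replicate 2). The cell cycle kinase gene Cdk6, which is high in immature blood cells, stood at 451 and 446 CPM in cMoPs and 57.6 and 78 CPM in monocytes (log2 difference 2.74, SE 0.15, adjusted p = 1.5e-06). Irf8, the transcription factor that directs progenitors to the monocyte fate, was higher in cMoPs too, at 236 and 195 CPM against 59.6 and 75.6 CPM (log2 difference 1.67, SE 0.22, adjusted p = 0.0002). Cd93, a lectin-like receptor often used to mark progenitors, went the other way by -0.64.

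Primary granule genes had the highest median of the gene lists. Of 11 tested, 8 were higher, Ctsc and Srgn were lower and Calr did not pass, with a median of 5.10. Elane, neutrophil elastase (chr10:79886247-79888215, plus strand), stood at 9474 and 7529 CPM in cMoPs and 102 and 143 CPM in monocytes, a 70.2-fold difference (log2 difference 6.13, SE 0.18, adjusted p = 1e-07). Mpo, myeloperoxidase (chr11:87793581-87804413, plus strand), stood at 4212 and 3591 CPM against 4.56 and 20.3 CPM (log2 difference 8.66, SE 0.53, adjusted p = 2.5e-06). The monocyte libraries were themselves apart for Mpo, and the difference was 7.58 without monocyte replicate 1 and 9.74 without monocyte replicate 2. Ctsg, the protease cathepsin G, stood at 551 and 496 CPM against 1.6 and 5.5 CPM (log2 difference 7.46, SE 0.44, adjusted p = 2.2e-06), and its difference was 6.57 without monocyte replicate 1 and 8.35 without monocyte replicate 2. Prtn3, proteinase 3, whose gene lies next to Elane (chr10:79874476-79883174, plus strand), stood at 2425 and 2186 CPM against 45.5 and 98.9 CPM (log2 difference 5.10, SE 0.30, adjusted p = 1.9e-06). Ms4a3, a membrane protein gene used to trace the progeny of granulocyte and monocyte progenitors (chr19:11629496-11640851, minus strand), stood at 718 and 709 CPM against 2.34 and 4.21 CPM, a 227-fold difference (log2 difference 7.83, SE 0.24, adjusted p = 1e-07). All 5 genes separated the groups without overlap, and all 5 were higher in monocyte replicate 2 than in monocyte replicate 1. Prss57, a further serine protease of these granules, differed by 8.67 (7.19 without monocyte replicate 1 and 10.15 without monocyte replicate 2). Prss57 passed the filter on low values through cMoP libraries only, which favours a higher call. The 2 members that were lower were Ctsc and Srgn. Ctsc, which encodes the dipeptidase that activates granule proteases, differed by -1.16, and Srgn, the granule proteoglycan serglycin, by -0.41, a call that ended without cMoP replicate 1, cMoP replicate 2 or monocyte replicate 2 (highest adjusted p = 0.16).

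**Figure D2:**
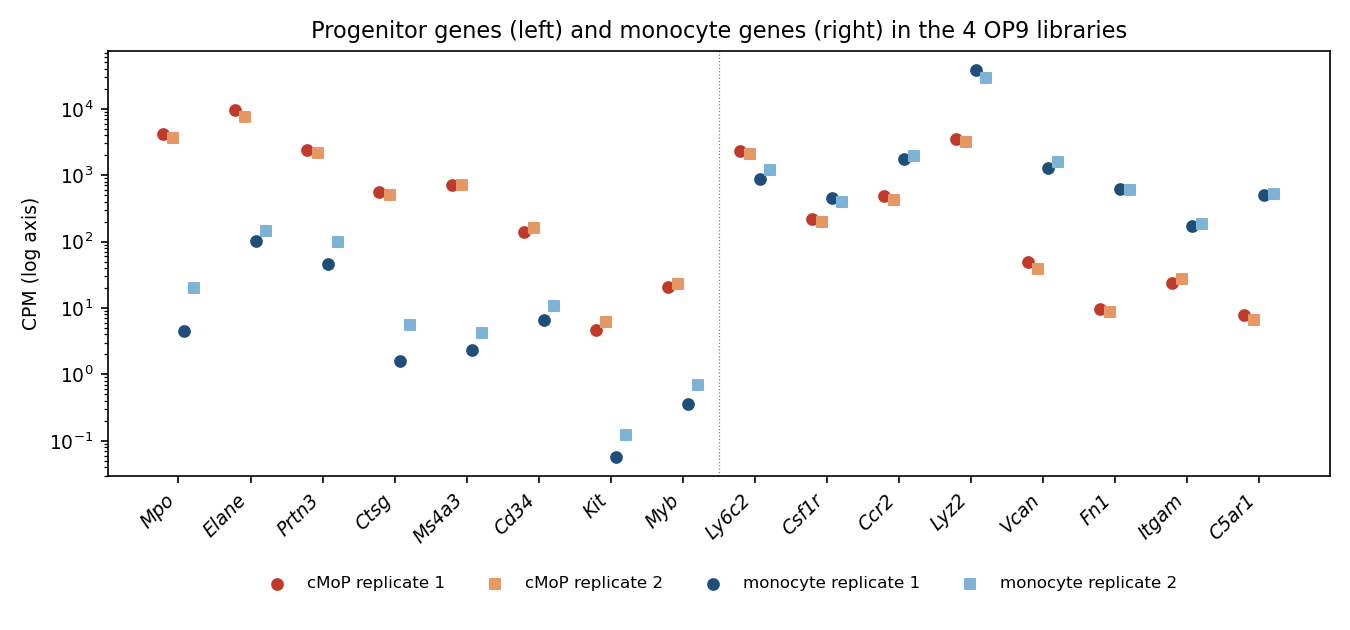
CPM on a log axis (y) in each of the 4 libraries for genes of progenitor identity, primary granules and monocytes (x), with 1 point per library, red and orange for cMoP replicates 1 and 2 and dark and light blue for monocyte replicates 1 and 2. The cMoP points lie above the monocyte points for the progenitor and granule genes, such as Mpo at 4212 and 3591 CPM against 4.56 and 20.3 CPM, and below them for the monocyte genes other than Ly6c2, such as Fn1 at 9.54 and 8.7 CPM against 620.1 and 599.5 CPM.

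Among genes outside these lists, those with the highest differences in cMoPs belonged to no single group. Sh2d5, an adaptor with an SH2 domain, gave 1168 reads in cMoPs and 2 in monocytes, a ratio of 469 (95% exact binomial interval 129 to 3875, which covers counting error only), and both monocyte reads lay in replicate 2. Nkg7, a granule membrane protein known from cytotoxic lymphocytes, stood at 224 and 178 CPM against 0.958 and 1.92 CPM (log2 difference 7.20, SE 0.30, adjusted p = 5.2e-07 by limma-trend). Mgl2, a C-type lectin known from dendritic cells, stood at 65.9 and 43.3 CPM against 0.219 and 0.846 CPM (log2 difference 6.95, SE 0.53, adjusted p = 8.5e-06), and was 5.98 without monocyte replicate 1 and 7.93 without monocyte replicate 2. Of 9 T and NK cell markers 2 were tested, Nkg7 and Lck, and Lck did not pass at 1.72 and 1.07 CPM against 0.45 and 0.307 CPM. Lck passed with log2(CPM + 1) (adjusted p = 0.017 by limma-trend) and with voom (0.032). Of 11 dendritic cell markers 5 were tested, of which Mgl2 was higher, Cd209a was lower (-4.94, -5.87 without monocyte replicate 1 and -4.01 without monocyte replicate 2) and Xcr1, Batf3 and Clec10a did not pass. Ubash3a, a suppressor of antigen receptor signalling, differed by 6.46, and Pcp4l1 by 6.38. Sh2d5, Ubash3a, Pcp4l1 and the 5 genes that follow stood under 1 CPM in every monocyte library of both stromas. They passed the filter on low values through cMoP libraries only, which favours higher calls. A further 5 genes were close to absent from monocytes: the tubulin gene Tuba8 at 16.7 and 13.1 CPM in cMoPs, the gluconeogenic enzyme gene Fbp1 at 9.2 and 6.34 CPM, and Enpp4, Tctex1d1 and Bhlhb9 at 6.22 to 8 CPM, all at 0.4 CPM or less in each monocyte library. Fitted differences for them ran from 6.80 to 8.43 and moved by over 1.5-fold without 1 monocyte library for Tuba8 (6.55 without monocyte replicate 1 and 10.32 without monocyte replicate 2), Fbp1 (5.98 without monocyte replicate 1 and 9.37 without monocyte replicate 2), Enpp4 (5.78 without monocyte replicate 1 and 9.16 without monocyte replicate 2), Tctex1d1 (9.56 without monocyte replicate 1 and 5.34 without monocyte replicate 2) and Bhlhb9 (4.24 without monocyte replicate 1 and 9.36 without monocyte replicate 2).

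Genes that copy DNA were higher in cMoPs nearly without exception. Many of them are transcribed at the G1/S boundary through E2F factors, and an E2F-type sequence (TTTCCCGC, TTTGGCGC or TTTCGCGC, read on both strands) lay between 250 bases before and 50 after a start site in 17 of the 42 list members with a promoter sequence (40.5%), against 4.33% of 9066 genes with one. Promoters of Mcm7, Cdc6 and Mcm5 are shown because these genes were among the members with the clearest differences and hold a match. The letters come from RefSeq (GRCm38.p6) and are written 5′ to 3′ along the gene, with the match in capitals. The windows are chr5:138171995-138172094 on the minus strand, chr11:98907967-98908066 on the plus strand and chr8:75109314-75109413 on the plus strand, and the capitals of Mcm5 hold 2 matches that overlap on opposite strands.
Mcm7: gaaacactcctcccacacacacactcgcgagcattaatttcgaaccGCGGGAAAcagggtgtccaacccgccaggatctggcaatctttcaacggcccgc
Cdc6: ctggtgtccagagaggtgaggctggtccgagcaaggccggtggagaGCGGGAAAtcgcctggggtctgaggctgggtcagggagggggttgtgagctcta
Mcm5: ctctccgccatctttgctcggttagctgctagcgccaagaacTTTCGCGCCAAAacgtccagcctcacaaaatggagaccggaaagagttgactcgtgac
A match describes these letters and was not tested as a binding site.

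Of 51 replication and nucleotide supply genes 48 were higher, E2f2 was lower, and Dbf4 and E2f1 did not pass, with a median of 2.49. The MCM proteins form the helicase that opens DNA at origins. Mcm7 stood at 261 and 232 CPM in cMoPs and 24.9 and 28.4 CPM in monocytes (log2 difference 3.21, SE 0.14, adjusted p = 6e-07), and Mcm2 at 183 and 176 CPM against 13.8 and 19.1 CPM (log2 difference 3.47, SE 0.16, adjusted p = 7.9e-07). Cdc6, which loads that helicase, stood at 145 and 139.6 CPM against 9.09 and 12.9 CPM (log2 difference 3.72, SE 0.17, adjusted p = 7e-07), and Mcm5 differed by 3.27. The groups were far apart for each of these genes. Chaf1b, a subunit of the chromatin assembly factor that places histones behind the fork, differed by 2.98. Nucleotide supply moved the same way: Rrm2, the small subunit of ribonucleotide reductase, stood at 781 and 781 CPM against 62 and 94.4 CPM (difference 3.35). Dut, which removes dUTP, stood at 75.4 and 66.7 CPM against 1 and 2.52 CPM (difference 5.48, 4.81 without monocyte replicate 1 and 6.14 without monocyte replicate 2). The E2F genes themselves did not follow their list. E2f2 stood at 39.6 and 37.4 CPM against 72.4 and 85.4 CPM (log2 difference -1.03, SE 0.15, adjusted p = 0.0004), lower in both cMoP libraries, and E2f1 differed by -0.50 (SE 0.21), adjusted p = 0.069 by limma-trend. Summed over the list, expression was 7506 and 7161 CPM in the cMoP libraries and 1325 and 1658 CPM in the monocyte libraries.

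Fewer genes of mitosis than of replication were higher in cMoPs, and their values depended on which monocyte library was used. The CHR sequence TTTGAA, which lies in many promoters of genes that peak in G2 and mitosis, was found on either strand in 33 of 43 list members with a promoter sequence (76.7%), against 15.0% of 9066 genes. Windows of Cdk1 (chr10:69352913-69353012, minus strand) and Cdc20 (chr4:118437344-118437443, minus strand) are shown as examples from RefSeq (GRCm38.p6), with the matches in capitals.
Cdk1: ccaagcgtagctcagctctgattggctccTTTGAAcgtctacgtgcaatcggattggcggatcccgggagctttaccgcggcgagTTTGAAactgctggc
Cdc20: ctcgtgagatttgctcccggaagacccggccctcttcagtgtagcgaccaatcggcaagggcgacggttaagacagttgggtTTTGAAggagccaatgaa
Of 51 mitosis genes 24 were higher in cMoPs, none was lower and 27 did not pass, with a median of 0.66, and by unadjusted p 26 were higher and 1 lower. The summed expression was 5873 and 6266 CPM in the cMoP libraries and 2566 and 5487 CPM in the monocyte libraries, so monocyte replicate 2 lay close to the cMoP libraries and monocyte replicate 1 well below. The monocyte libraries on OP9-DLL1 summed to 4462 and 4801 CPM, between the monocyte libraries on OP9 and closer to replicate 2. Without monocyte replicate 1 the median was 0.18, and without monocyte replicate 2 it was 1.28. Without cMoP replicate 1 the median was 0.76, and without cMoP replicate 2 it was 0.65. The count of higher genes was 11 without the trend or with only the 4 OP9 libraries.

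Single mitosis genes show the same split. Cdk1, the kinase that starts mitosis, stood at 295 and 322 CPM in cMoPs and 68.1 and 176 CPM in monocytes (log2 difference 1.49, SE 0.34, adjusted p = 0.0045 by limma-trend), and its difference was 0.81 without monocyte replicate 1 and 2.18 without monocyte replicate 2. Aurkb, a kinase that corrects attachment of chromosomes to the spindle, stood at 169 and 158 CPM against 39.9 and 86.5 CPM (log2 difference 1.48, SE 0.29, adjusted p = 0.002). In both genes both cMoP libraries were above both monocyte libraries. The spindle checkpoint genes Mad2l1 and Ttk differed by 1.65 (1.05 without monocyte replicate 1 and 2.25 without monocyte replicate 2) and 1.21, and the kinetochore gene Spc24 by 1.49. Mki67, the proliferation marker Ki-67, stood at 134 and 125 CPM against 72.9 and 166 CPM and did not pass (log2 difference 0.23, SE 0.31, adjusted p = 0.54), with monocyte replicate 2 above both cMoP libraries. Cenpf, a kinetochore protein that accumulates in G2, stood at 61.1 and 57.3 CPM against 54.3 and 129 CPM, again with monocyte replicate 2 highest (adjusted p = 0.2). The calls of Cdc20, which activates the anaphase promoting complex (0.98), and of the topoisomerase gene Top2a (1.15) ended when a cMoP library was left out (highest adjusted p = 0.061 for Cdc20 without replicate 1 and 0.13 for Top2a without either), and Top2a was 0.28 without monocyte replicate 1 and 2.01 without monocyte replicate 2.

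**Figure D3:**
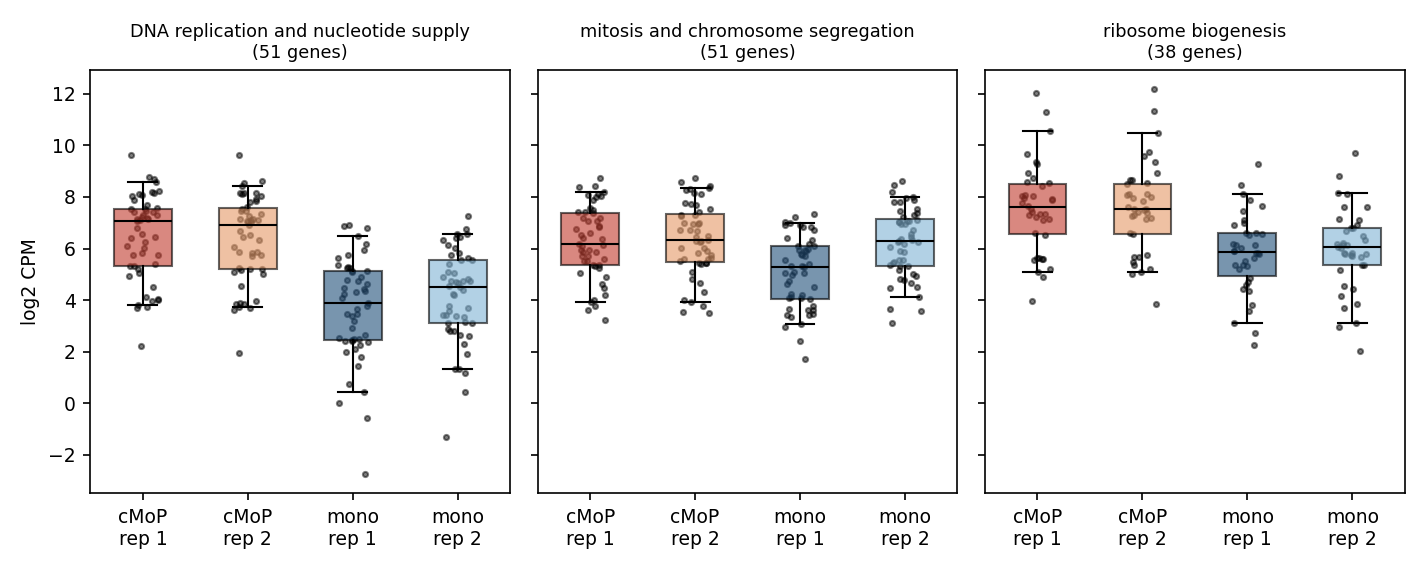
Expression of the replication, mitosis and ribosome biogenesis lists by library (x axis), as log2 CPM (y axis) with 1 point per gene, a box over the middle 50% of genes, a bar at the median and whiskers from the 5th to the 95th percentile. Replication genes have medians of 7.08 and 6.92 in the cMoP libraries against 3.91 and 4.50 in the monocyte libraries, while mitosis genes have 6.18 and 6.34 against 5.27 in monocyte replicate 1 and 6.27 in monocyte replicate 2.

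Genes of cell cycle entry and its inhibitors were split, with cyclins and their kinases among the higher and several inhibitors among the lower. Not all of the 9 lower members are named here. Among 18 tested, 7 were higher and 9 lower (median -0.36), and the 7 were cyclins, their kinases and Rbl1: Ccnd1, Ccnd2, Ccne1, Ccne2, Cdk2 and Cdk4. Ccnd2, cyclin D2, stood at 578 and 619 CPM in cMoPs and 7.82 and 19.1 CPM in monocytes (log2 difference 5.61, SE 0.42, adjusted p = 7.9e-06 by limma-trend), and was 4.97 without monocyte replicate 1 and 6.26 without monocyte replicate 2. Ccnd1 stood at 46.3 and 52.9 CPM against 3.13 and 6.59 CPM (difference 3.45), and their partner kinase gene Cdk4 at 877 and 891 CPM against 254 and 244 CPM (difference 1.83). Ccne1 was 1.84 without monocyte replicate 1 and 3.29 without monocyte replicate 2, from 2.57 with all libraries. The members that were lower included the inhibitors Cdkn1b (p27), at 3.3 and 4.66 CPM against 24.3 and 26.2 CPM (log2 difference -2.68, SE 0.22, adjusted p = 1.3e-05), and Cdkn1a (p21), at 209 and 227 CPM against 540.5 and 580.1 CPM. The antiproliferative genes Btg1 and Btg2 were the lowest of the list relative to monocytes: Btg1 stood at 39.8 and 41.2 CPM against 891 and 714 CPM (difference -4.30) and Btg2 at 11 and 10.6 CPM against 223 and 240.1 CPM (difference -4.42). None of these genes overlapped between the groups.

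Synthesis of ribosomes and of building blocks for nucleic acids was higher in cMoPs. All 19 genes of purine, pyrimidine, serine and one-carbon synthesis were higher (median 2.48). Phgdh, the first enzyme of serine synthesis, stood at 682 and 715 CPM in cMoPs and 7.98 and 21.4 CPM in monocytes (log2 difference 5.74, SE 0.39, adjusted p = 4.8e-06 by limma-trend), and was 5.03 without monocyte replicate 1 and 6.45 without monocyte replicate 2. Shmt2, which passes a carbon from serine to folate in mitochondria, stood at 430.2 and 454 CPM against 56.1 and 61 CPM, and Mthfd1, which handles that carbon in the cytosol, at 96.5 and 88.4 CPM against 7.86 and 7.34 CPM. Both enzymes were separated without overlap, with differences of 2.92 and 3.60. Pfas of purine synthesis differed by 2.77 and Impdh2, which commits purines to guanine nucleotides, by 2.49.

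Of 38 ribosome biogenesis genes 37 were higher (median 1.68), and Heatr1 did not pass at 0.03 (SE 0.16), adjusted p = 0.88 by limma-trend. Npm1, nucleophosmin, a chaperone of ribosome assembly, stood at 4190.5 and 4594 CPM in cMoPs and 621 and 838 CPM in monocytes (log2 difference 2.60, SE 0.15, adjusted p = 1.6e-06). Ncl, nucleolin, stood at 2489 and 2579 CPM against 238 and 451 CPM, and the box C/D protein gene Nop56 at 1510.4 and 1413 CPM against 274 and 278 CPM. These nucleolar genes were high in both cMoP libraries and lower in both monocyte libraries. Myc, a transcription factor known to drive ribosome synthesis, stood at 201 and 194 CPM against 15.2 and 20.8 CPM (log2 difference 3.48, SE 0.18, adjusted p = 1.1e-06). The E box CACGTG, which MYC and other factors can bind, lay in 9 of 34 members with a promoter sequence (26.5%), against 12.1% of 9066 genes. Windows of Nop2 (chr6:125131776-125131875, plus strand), an rRNA methyltransferase gene that differed by 1.94, and of Rrn3 (chr16:13780599-13780698, plus strand), an initiation factor of RNA polymerase I that differed by 1.29, are shown with the E box in capitals (RefSeq, GRCm38.p6).
Nop2: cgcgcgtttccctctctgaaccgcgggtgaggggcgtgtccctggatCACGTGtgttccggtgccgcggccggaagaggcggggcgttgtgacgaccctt
Rrn3: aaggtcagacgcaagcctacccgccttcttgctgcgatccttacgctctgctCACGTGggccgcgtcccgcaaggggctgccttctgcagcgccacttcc
The match was not tested as a MYC site.

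**Figure D4:**
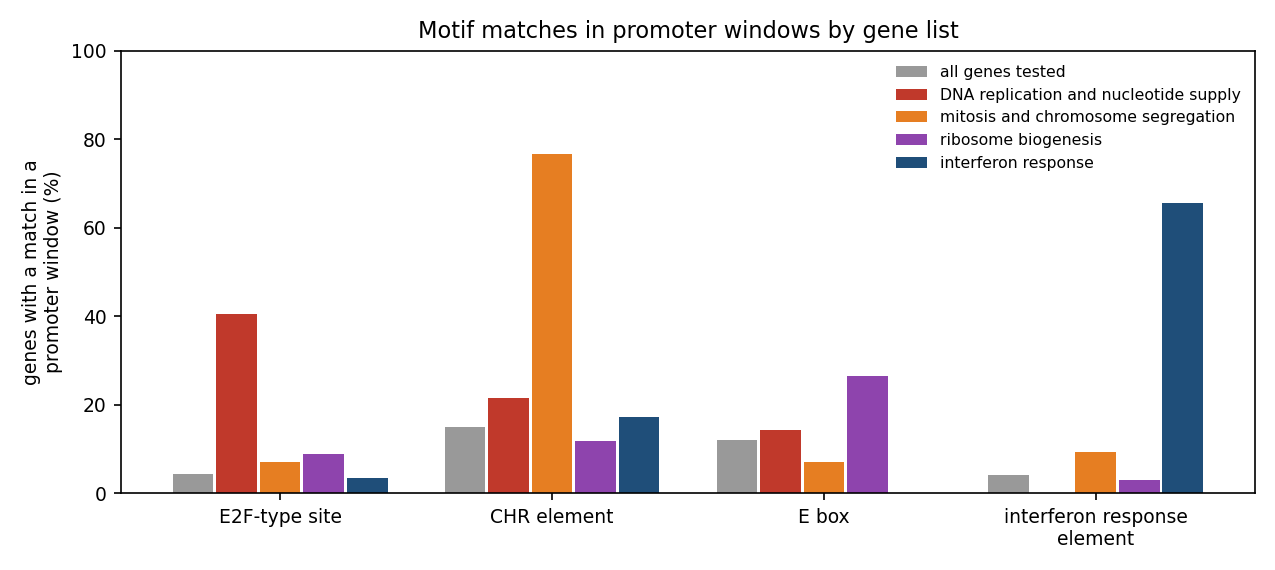
Share of genes with a promoter sequence that hold each motif (bars, percent on the y axis, from 0) for 4 gene lists and for all genes tested, grouped by motif on the x axis. The E2F-type sequence is held by 40.5% of replication genes, the CHR sequence by 76.7% of mitosis genes, the E box by 26.5% of ribosome biogenesis genes and the interferon-stimulated response element by 65.5% of interferon genes, against 4.33%, 15.0%, 12.1% and 4.04% of all genes.

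Ribosomal proteins were higher as well, by smaller amounts. Of 87 cytosolic ribosomal protein genes 80 were higher and Rpl3l, a paralogue known from muscle, was lower, at -2.51 (list median 0.86). Rpl12 of the large subunit stood at 592 and 643 CPM in cMoPs and 193 and 226 CPM in monocytes (difference 1.56), and Rpl5, which carries 5S rRNA, at 1568 and 1719 CPM against 529 and 657 CPM (difference 1.48). These genes have many near-identical processed pseudogenes, and reads may be shared among them. Of 76 mitochondrial ribosomal protein genes 55 were higher (median 0.61) and Mrpl52, Mrps21 and Mrpl33 were lower. Mrpl12 stood at 521 and 539 CPM against 124 and 140.1 CPM (difference 2.01), while Mrpl52 stood at 96.8 and 95.8 CPM against 232 and 221 CPM (difference -1.24). The call of Mrpl33 ended without cMoP replicate 1 (adjusted p = 0.051 by limma-trend), and without monocyte replicate 2 the list held 8 lower genes in place of 3.

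Nuclear genes of oxidative phosphorylation were higher in 19 of 77 cases and lower in 9, with a median of 0.09, and the other 49 did not pass. Atp5b, the catalytic subunit of ATP synthase, stood at 1513 and 1424 CPM in cMoPs and 811 and 857 CPM in monocytes (log2 difference 0.82, SE 0.10, adjusted p = 0.00012 by limma-trend). The lower count was 25 without monocyte replicate 2 and 4 without cMoP replicate 1, and without cMoP replicate 2 the counts were 12 higher and 4 lower. Of the 13 genes encoded in mitochondrial DNA 5 were higher, mt-Nd1, mt-Nd2, mt-Nd3, mt-Cytb and mt-Atp6 (median 0.42). Of these, mt-Nd1 of complex I stood at 2039 and 2361 CPM against 1132 and 1585 CPM (difference 0.71), above in both cMoP libraries. The count was 11 without monocyte replicate 2, and 2 without cMoP replicate 2, without the trend or with only the 4 OP9 libraries, and the calls of mt-Nd2, mt-Cytb and mt-Atp6 ended when 1 library was left out (highest adjusted p = 0.092, 0.13 and 0.24).

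Classical monocyte genes were mostly lower in cMoPs, at 21 of 25 tested, while 3 were higher, Ly6c2 and Plac8 among them, and Klf4 did not pass (median -1.95). Fn1, fibronectin (chr1:71585520-71653200, minus strand), stood at 9.54 and 8.7 CPM in cMoPs and 620.1 and 599.5 CPM in monocytes, a 66.9-fold difference (log2 difference -6.06, SE 0.16, adjusted p = 1e-07 by limma-trend). Vcan, the matrix proteoglycan versican, stood at 48.8 and 38.6 CPM against 1291 and 1574 CPM (log2 difference -5.04, SE 0.20, adjusted p = 4.6e-07). Ccr2, the chemokine receptor through which monocytes leave marrow, stood at 482 and 419 CPM against 1743 and 1927 CPM (log2 difference -2.03, SE 0.12, adjusted p = 2.7e-06). In all 3 genes both monocyte libraries were above both cMoP libraries. Stromal cells also transcribe Fn1 and Vcan, 9 markers of OP9 stroma summed to 6.04 and 6.16 CPM in the cMoP libraries and 116 and 105 CPM in the monocyte libraries, and the part of stromal RNA in these genes was not tested. Chil3, a secreted chitinase-like protein, stood at 104 and 55.9 CPM against 3247 and 1671 CPM (difference -4.94), and both groups spread widely without meeting. The members that went the other way include the antigen that names the monocytes. Ly6c2, which encodes Ly6C, stood at 2313 and 2072 CPM against 872 and 1204 CPM (log2 difference 1.10, SE 0.16, adjusted p = 0.00035), with reads possibly shared with the near-identical Ly6c1. Plac8, a small cysteine-rich protein, stood at 1276 and 1281 CPM against 223 and 209 CPM (difference 2.57).

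Genes of nonclassical monocytes did not move as a block: of 27 tested 14 were lower and 4 higher (median -0.76). The 4 higher were Cx3cr1, the receptor for fractalkine, at 11.8 and 9.67 CPM in cMoPs and 2.51 and 2.04 CPM in monocytes (log2 difference 2.24, SE 0.30, adjusted p = 0.00022 by limma-trend), Spn, which encodes the sialomucin CD43, at 57.2 and 63.2 CPM against 10.9 and 16.5 CPM (difference 2.16), the inhibitory receptor gene Lair1 (1.40) and the ion transporter gene Slc12a2 (1.54). The call of Slc12a2 ended without any of cMoP replicate 1, cMoP replicate 2 and monocyte replicate 2 (highest adjusted p = 0.13). The lower members included Nr4a1, the factor on which nonclassical monocytes depend, at 0.763 and 2.27 CPM against 34.3 and 33.7 CPM (log2 difference -4.69, SE 0.41, adjusted p = 1.8e-05), with -3.90 without cMoP replicate 1 and -5.48 without cMoP replicate 2. They also included Cd274, the gene of the checkpoint ligand PD-L1, at -3.69, Gngt2, a G protein subunit, at -3.27, the ribonuclease gene Ear2 at -5.11 and Cd300ld at -4.27. For Nr4a1, Gngt2, Ear2 and Cd300ld both cMoP libraries lay below both monocyte libraries.

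The 3 genes that the title of the series names were each lower in cMoPs. Bcl6, a transcriptional repressor (chr16:23965052-23988852, minus strand), was low in both cell types, at 0.884 and 0.575 CPM in cMoPs and 4.7 and 7.41 CPM in monocytes (log2 difference -3.05, SE 0.60, adjusted p = 0.0021 by limma-trend). Irf2, a factor of the interferon regulatory family (chr8:46739732-46847458, plus strand), stood at 49.4 and 47.7 CPM against 224 and 172 CPM (log2 difference -2.02, SE 0.16, adjusted p = 8.9e-06). Notch2, a receptor for DLL1 and other ligands (chr3:98013527-98150361, plus strand), stood at 36.3 and 35 CPM against 60.2 and 70.5 CPM (log2 difference -0.87, SE 0.16, adjusted p = 0.0013). The groups did not overlap for any of the 3. Bcl6 stood under 1 CPM in every cMoP library of both stromas. It passed the filter on low values through monocyte libraries only, which favours a lower call.

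Other genes of the Notch pathway split, with 6 of 25 higher and 11 lower (median -0.45). Notch1 stood at 11.4 and 12.8 CPM in cMoPs and 44.1 and 42.3 CPM in monocytes (log2 difference -1.84, SE 0.18, adjusted p = 3.8e-05 by limma-trend), and Rbpj, the DNA-binding partner of the cleaved receptor, at 27 and 21.8 CPM against 66.7 and 72.2 CPM (log2 difference -1.52, SE 0.17, adjusted p = 7e-05). The coactivator genes Maml1 and Maml3, the protease genes Adam10 and Adam17, Psenen, a subunit of the secretase that frees the receptor, and Numb, an inhibitor, were lower too. So was Lfng (-1.57), a sugar transferase that tunes which ligand a receptor answers, whereas its relative Mfng was higher (1.64, 43.9 and 37.4 CPM against 16.2 and 10.4 CPM). Poglut1 (1.03) and Pofut1 (0.63), which attach sugars to the receptor, Dtx4 (1.38), Myc and Ccnd1 were the other higher members. Hes1, a direct target of the receptor, gave 5 reads in cMoPs and 3 in monocytes (ratio 1.34, 95% exact binomial interval 0.26 to 8.61) and did not pass, so on plain OP9 it was near the limit of detection in both cell types. The calls of Pofut1 and Maml1 ended without cMoP replicate 1, cMoP replicate 2 or monocyte replicate 1 (highest adjusted p = 0.15 for Pofut1 and 0.063 for Maml1), and that of Maml3 without cMoP replicate 2 (adjusted p = 0.12).

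Transcription factors of monocytes were lower in 22 of 37 cases and higher in 4, Irf8, Gfi1, Myb and Myc (median -1.26). Spi1, which encodes PU.1, the factor that opens the myeloid programme, stood at 33.3 and 30.4 CPM in cMoPs and 81.1 and 71.2 CPM in monocytes (log2 difference -1.26, SE 0.13, adjusted p = 5.8e-05 by limma-trend). Id2, an inhibitor of E proteins, stood at 60 and 53.8 CPM against 834 and 971 CPM (log2 difference -3.99, SE 0.12, adjusted p = 1e-07). Each was lower in both cMoP libraries without overlap. Zeb2, a repressor needed for monocyte identity, differed by -2.25, Cebpb by -1.86 and Egr2 by -6.90 (-7.72 without cMoP replicate 1 and -6.09 without cMoP replicate 2). Bach2 gave 0 reads in cMoPs and 108 in monocytes, at least 44.9-fold lower against a floor of 3 reads over the cMoP pair. Klf4 (log2 difference 0.48, SE 0.18, adjusted p = 0.051) and Cebpa (log2 difference 0.38, SE 0.23, adjusted p = 0.19), which are needed for monocytes and for myeloid progenitors, did not pass. Klf4 passed by limma-trend with centred libraries (adjusted p = 0.034), a filter at 5 CPM (0.044) or log2(CPM + 1) (0.044), and with voom (0.042). The call of Gfi1, a repressor of granulocyte progenitors at 3.98 and 3 CPM against 0.127 and 0.195 CPM, ended without cMoP replicate 1 (adjusted p = 0.058), and without monocyte replicate 2 the list held 7 higher genes in place of 4.

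Receptors for growth factors and cytokines were lower in 22 of 27 cases, and Kit and Il21r were higher (median -1.0). Csf1r, the M-CSF receptor on which monocytes depend, stood at 218 and 197 CPM in cMoPs and 461 and 394 CPM in monocytes (log2 difference -1.04, SE 0.12, adjusted p = 7.5e-05 by limma-trend). Il13ra1, a shared chain of the IL-4 and IL-13 receptors, stood at 3.44 and 4.26 CPM against 56.1 and 45.9 CPM, and the interferon receptor gene Ifnar1 at 22.8 and 23.8 CPM against 104 and 92 CPM (differences -3.73 and -2.07). All 3 were lower in both cMoP libraries. Csf2rb2, a chain of the IL-3 receptor similar in sequence to Csf2rb, differed by -2.57, and the IL-10 receptor gene Il10ra by -2.61. The genes that did not pass were Il1r1, Il1rap and Il3ra.

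Among 16 chemoattractant receptors 11 were lower and 3 higher (median -2.63). The complement receptor gene C5ar1 stood at 7.93 and 6.58 CPM in cMoPs and 498 and 513 CPM in monocytes (log2 difference -6.13, SE 0.25, adjusted p = 4.6e-07 by limma-trend), and C3ar1 at 2.62 and 3.11 CPM against 337 and 264 CPM (log2 difference -6.71, SE 0.21, adjusted p = 1e-07). Ccr1, a receptor for several CC chemokines, stood at 155 and 164 CPM against 735 and 821 CPM (log2 difference -2.28, SE 0.11, adjusted p = 9.8e-07). These receptors were lower in both cMoP libraries, and Ptafr, the receptor for platelet activating factor, differed by -2.85. Cmklr1, the chemerin receptor, gave 2 reads in cMoPs and 415 in monocytes (ratio 259, 95% exact binomial interval 71.1 to 2142, from counting error only), with monocyte libraries at 3.96 and 4.55 CPM. S1pr1, which guides exit from tissue, gave 0 reads in cMoPs and 196 in monocytes, at least 81.4-fold lower. The receptors that were higher were Cx3cr1, Cxcr4, which holds cells in marrow, at 4.54 and 4.26 CPM against 0.473 and 1.03 CPM (difference 2.65), and S1pr4 (1.34). Some calls ended when 1 OP9 library was left out and all other libraries of both stromas were kept. They were S1pr1 (-8.09 without monocyte replicate 1 and -7.71 without monocyte replicate 2) and S1pr4 (1.14 without cMoP replicate 2).

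Pattern recognition and Fc receptors were lower in 30 of 35 cases (median -2.59). Clec4n, which encodes the fungal receptor dectin-2 (chr6:123229843-123247021, plus strand), stood at 15.2 and 14 CPM in cMoPs and 1744 and 1161 CPM in monocytes (log2 difference -6.61, SE 0.21, adjusted p = 1e-07 by limma-trend). Clec4a3, of the same gene cluster, stood at 9.98 and 7.05 CPM against 703 and 554 CPM (log2 difference -6.22, SE 0.20, adjusted p = 1e-07), with reads possibly shared among the similar Clec4a genes. Tlr13, a sensor of bacterial ribosomal RNA, stood at 2.32 and 2.87 CPM against 49.1 and 52.4 CPM (difference -4.30). All 3 were lower in both cMoP libraries, as were the scavenger receptor gene Msr1 (-3.52), Tlr4, the receptor for lipopolysaccharide (-2.69), Tlr2 (-2.26), the Fc receptor gene Fcgr3 (-1.94) and the signalling adaptor gene Tyrobp (-1.93). The 3 that were higher were Clec12a (1.35), Trem3 (1.34) and Clec5a (1.14), the last at 453 and 502 CPM against 194 and 243 CPM.

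Adhesion molecules were divided, with 12 of 22 lower and 6 higher (median -0.64). Itgam, the integrin chain CD11b, stood at 23.6 and 27.4 CPM in cMoPs and 172 and 183 CPM in monocytes (log2 difference -2.80, SE 0.17, adjusted p = 2.8e-06 by limma-trend), and its partner Itgb2 at 252 and 240 CPM against 1137 and 1047 CPM (log2 difference -2.15, SE 0.12, adjusted p = 1.8e-06). Jaml, a junctional adhesion molecule, stood at 2.82 and 1.56 CPM against 34.8 and 32.5 CPM (difference -4.00), and Itgb5 differed by -2.41. Those integrins and Jaml were lower in both cMoP libraries. Among the higher genes were Spn, the laminin receptor chain Itga6 (2.26), Icam2 (0.73), Cd47 (1.08), the signal against engulfment, and Pecam1 (1.56).

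Calcium-binding S100 proteins and annexins included no higher gene and 11 lower of 16 (median -1.56), with 13 lower and 1 higher by unadjusted p. S100a6 stood at 272 and 261 CPM in cMoPs and 1717 and 1530 CPM in monocytes (log2 difference -2.60, SE 0.12, adjusted p = 6e-07 by limma-trend), and S100a4 at 2.15 and 2.44 CPM against 27.6 and 27 CPM (log2 difference -3.58, SE 0.19, adjusted p = 1.4e-06), lower in both cMoP libraries. The abundant membrane protein genes Anxa2 and S100a10, whose products bind each other, differed by -1.59 and -1.53. The calprotectin genes S100a8 (341 and 264 CPM against 251 and 312 CPM) and S100a9 (53.1 and 61.9 CPM against 75.7 and 116 CPM) did not pass (adjusted p = 0.72 and 0.06), and the groups overlapped for S100a8. S100a9 passed by limma-trend with log2(CPM + 1) (adjusted p = 0.049), only the 4 OP9 libraries (0.039) or a replicate block (0.019), and with voom (0.047). Of 8 genes of the NADPH oxidase and lysozyme 7 were lower and Ncf1 did not pass (median -1.56). Lyz2, lysozyme M, stood at 3563 and 3116 CPM against 38233 and 29412 CPM, a 10.1-fold difference (log2 difference -3.33, SE 0.16, adjusted p = 9.2e-07). Its neighbour Lyz1, which is similar in sequence, differed by -3.26, the oxidase subunit genes Cybb by -1.79 and Cyba by -1.82.

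Lysosomal genes were lower in 28 of 36 cases and higher in 3 (median -1.17). Ctss, the cysteine protease cathepsin S, stood at 222 and 226 CPM in cMoPs and 2556 and 2215 CPM in monocytes (log2 difference -3.41, SE 0.11, adjusted p = 1.1e-07 by limma-trend). Cd68, a glycoprotein of macrophage lysosomes, stood at 222 and 229.8 CPM against 2344 and 1486 CPM (log2 difference -3.05, SE 0.18, adjusted p = 2.3e-06), and the protease gene Lgmn at 3.68 and 4.23 CPM against 320.3 and 135 CPM (log2 difference -5.72, SE 0.32, adjusted p = 1.7e-06), with -5.10 without monocyte replicate 1 and -6.34 without monocyte replicate 2. Ctsh differed by -2.46, and all 4 were lower in both cMoP libraries. Cd63, a tetraspanin of lysosomes and granules, went the other way at 502 and 441 CPM against 154 and 133 CPM (difference 1.72). The glucosidase gene Gaa (0.67) and the proton pump gene Atp6v1h (0.52) were the other higher members, and their calls ended without 1 library, Gaa without cMoP replicate 1 or monocyte replicate 2 (highest adjusted p = 0.16) and Atp6v1h without cMoP replicate 2 (adjusted p = 0.067).

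Class II antigen presentation genes were lower in 8 of 12 cases and higher in 2 (median -3.69). Ciita, the coactivator that switches the class II genes on, gave 0 reads in cMoPs and 624 in monocytes, at least 259-fold lower against a floor of 3 reads over the cMoP pair, with monocyte libraries at 3.61 and 8.71 CPM. Cd74, the invariant chain, stood at 22.3 and 32.5 CPM in cMoPs and 1688 and 1690.2 CPM in monocytes (log2 difference -5.97, SE 0.29, adjusted p = 8.3e-07 by limma-trend), and H2-Ab1, a class II chain, at 7.01 and 5.69 CPM against 56.2 and 101 CPM (difference -3.57). The costimulatory genes Cd86 and Cd80 differed by -3.82 and -3.81, and all 5 genes were lower in both cMoP libraries. Ciita passed the filter on low values through monocyte libraries only, which favours a lower call. The 2 that were higher, H2-Oa and H2-Ob, encode the chains of DO, which restrains peptide loading. H2-Oa stood at 2.86 and 4.65 CPM against 0.612 and 0.456 CPM, and H2-Ob at 2.41 and 1.21 CPM against 0.0577 and 0.344 CPM (differences 2.79 and 3.60, the latter 2.31 without monocyte replicate 1 and 4.89 without monocyte replicate 2). Class II genes are similar to one another and reads may be shared.

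Inflammatory mediators were lower in 24 of 30 cases, and Tnf and Lpl were higher (median -2.10). Il1b, interleukin 1 beta, stood at 0.96 and 2.11 CPM in cMoPs and 485 and 518 CPM in monocytes (log2 difference -8.46, SE 0.64, adjusted p = 7.9e-06 by limma-trend). Ccl2, the main ligand of CCR2, stood at 141 and 107 CPM against 1692 and 1088 CPM (difference -3.46), and Ccl6 at 124 and 129 CPM against 4459.7 and 2744 CPM (difference -4.79). These genes were lower in both cMoP libraries, and Osm, oncostatin M, Il18 and Il1rn, the antagonist of the IL-1 receptor, differed by -3.19, -3.56 and -3.16. Cxcl3, a chemokine for neutrophils, gave 3 reads in cMoPs and 6327 in monocytes (ratio 2628, 95% exact binomial interval 899 to 12745), of which monocyte replicate 2 held most, at 108 against 12.4 CPM. The call of Cxcl3 ended with voom on the recovered reads (adjusted p = 0.076). Cxcl3 passed the filter on low values through monocyte libraries only, which favours a lower call. Lpl, lipoprotein lipase, was higher at 759 and 1208 CPM against 125 and 177 CPM (difference 2.68). Tnf stood at 5.42 and 8.35 CPM against 3.61 and 3.71 CPM, and its call ended without cMoP replicate 2, monocyte replicate 1 or monocyte replicate 2 (highest adjusted p = 0.26).

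Several of the lowest genes relative to monocytes lie outside these lists or were scarcely detected in cMoPs. Of those below, Cd36, Flrt3, Prr5l, Serpinb2, Cbr2, Pltp and Ms4a8a stood under 1 CPM in every cMoP library of both stromas. They passed the filter on low values through monocyte libraries only, which favours lower calls. Ms4a4a, a membrane protein of macrophages on the same stretch of chromosome 19 as Ms4a3 (chr19:11375523-11392790, plus strand), stood at 8.38 and 9.01 CPM in cMoPs and 1748 and 1700.5 CPM in monocytes (log2 difference -7.63, SE 0.11, adjusted p = 8.6e-10 by limma-trend). Pla2g7, an enzyme that degrades platelet activating factor, stood at 3.47 and 4.26 CPM against 1453 and 871 CPM (log2 difference -8.19, SE 0.25, adjusted p = 1e-07), and Cd36, a scavenger receptor for lipids, at 0.068 and 0.995 CPM against 106 and 48.7 CPM (difference -8.11, -6.18 without cMoP replicate 1 and -10.05 without cMoP replicate 2). Flrt3 stood at 0.234 and 0.447 CPM against 66 and 49.3 CPM (difference -7.46), and all 4 genes were lower in both cMoP libraries. Prr5l, a partner of the mTORC2 kinase complex, gave 0 reads in cMoPs and 524 in monocytes (at least 218-fold lower). Serpinb2, an inhibitor of plasminogen activators, gave 0 and 831 (at least 345-fold lower), with monocyte libraries at 2.71 and 13.3 CPM. Most of those reads were of monocyte replicate 2, without which its call ended (adjusted p = 0.064), and its fitted difference of -9.50 was -10.64 without monocyte replicate 1 and -8.35 without monocyte replicate 2. Cbr2, Pltp and Ms4a8a stood at 0.37 CPM or less in each cMoP library, and the fitted difference was -8.52 for Cbr2 (-7.59 without cMoP replicate 1 and -9.44 without cMoP replicate 2 and -7.67 without monocyte replicate 1 and -9.36 without monocyte replicate 2), -7.78 for Pltp (-9.22 without cMoP replicate 1 and -6.33 without cMoP replicate 2) and -7.47 for Ms4a8a (-9.35 without cMoP replicate 1 and -5.59 without cMoP replicate 2).

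Interferon response genes were lower in cMoPs in 32 of 39 cases, and Bst2, Ifi47 and Gbp3 were higher (median -2.14). Many such genes carry an interferon-stimulated response element, and the sequence GAAA, then any 2 bases, then GAAA, read on both strands, lay in 19 of the 29 members with a promoter sequence (65.5%), against 4.04% of 9066 genes. Isg15 (chr4:156200830-156200929, minus strand), Ifit1 (chr19:34640759-34640858, plus strand) and Ifi205 (chr1:174031835-174031934, minus strand) are shown because they hold several matches or 1 (RefSeq, GRCm38.p6, matches in capitals). The run in Isg15 holds 3 matches that overlap, and Ifit1 holds 2 on the opposite strand.
Isg15: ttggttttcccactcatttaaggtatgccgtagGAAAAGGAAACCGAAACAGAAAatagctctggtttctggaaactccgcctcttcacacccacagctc
Ifit1: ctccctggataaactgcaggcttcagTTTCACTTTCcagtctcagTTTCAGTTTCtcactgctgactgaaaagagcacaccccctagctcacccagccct
Ifi205: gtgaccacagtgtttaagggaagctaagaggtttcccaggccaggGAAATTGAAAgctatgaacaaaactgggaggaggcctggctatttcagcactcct
Isg15, a ubiquitin-like modifier, stood at 3.83 and 3.08 CPM in cMoPs and 43.9 and 34.1 CPM in monocytes (log2 difference -3.49, SE 0.19, adjusted p = 1.5e-06 by limma-trend), and Ifit1, a sensor of foreign RNA ends, at 0.703 and 0.922 CPM against 10.7 and 9.72 CPM (difference -3.66). Irf7, the amplifier of the interferon response, stood at 6.1 and 5.08 CPM against 196 and 109.8 CPM (log2 difference -4.72, SE 0.25, adjusted p = 1.3e-06). All 3 were lower in both cMoP libraries. Rtp4, Ifi204 and Ifi205 differed by -6.61, -4.62 and -5.17, and Ifi205 was -4.47 without cMoP replicate 1 and -5.86 without cMoP replicate 2. Oas2 and Ifi213 passed the filter on low values through monocyte libraries only, which favours lower calls. Oas2 and Ifi213 were at 0 reads in cMoP replicate 2, and their fitted differences of -7.82 and -7.62 moved to -10.85 without cMoP replicate 1 and -4.78 without cMoP replicate 2 for Oas2 and -9.53 without cMoP replicate 1 and -5.71 without cMoP replicate 2 for Ifi213. The higher members differed by 1.19 (Gbp3), 0.52 (Bst2) and 0.43 (Ifi47), and the call of Ifi47 ended without either cMoP library (highest adjusted p = 0.071).

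Immediate early genes, which are transcribed within minutes of a stimulus, were mostly lower in cMoPs, and 4 chaperone genes of the heat shock response were higher. Of 26 genes in this list 18 were lower and 4 higher (median -1.67), the 4 being Hsph1, Hspa1a, Hspa1b and Dnajb1. Fos stood at 138 and 119.6 CPM in cMoPs and 1625 and 1320.3 CPM in monocytes (log2 difference -3.51, SE 0.15, adjusted p = 6e-07 by limma-trend), and Zfp36, which speeds decay of cytokine mRNAs, at 177 and 174 CPM against 1153 and 1053 CPM (log2 difference -2.65, SE 0.11, adjusted p = 4.6e-07). Both were lower in both cMoP libraries, and Fosl2 differed by -2.49. Hsph1 stood at 143 and 143 CPM against 35.5 and 43.9 CPM (difference 1.86), higher in both cMoP libraries. Hspa1a and Hspa1b are near-identical and stood under 3 CPM in every library, and Hspa1a was 0.72 without monocyte replicate 1 and 2.41 without monocyte replicate 2. Without single libraries calls ended for Hspa1a (highest adjusted p = 0.24), Hspa1b (0.082) and Dnajb1 (0.18), so that the list held 1 higher gene without either cMoP library and 2 without monocyte replicate 1.

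Genes of lipid and sugar metabolism went both ways, with medians near 0. Of 23 cholesterol synthesis genes 5 were higher and 4 lower (median 0.24), and without monocyte replicate 2 the higher count was 10, while the lower count was 1 without cMoP replicate 1 and 2 without cMoP replicate 2. Acat2, which condenses the first acetyl units, stood at 141 and 148 CPM in cMoPs and 40.1 and 36.2 CPM in monocytes (log2 difference 1.92, SE 0.13, adjusted p = 5.2e-06 by limma-trend), and Dhcr7 and Lss differed by 1.64 and 1.32. The lowest of the 23 differed by -1.22, and the 4 that were lower are not named here. Among 29 genes of glycolysis and hypoxia 12 were higher and 7 lower (median 0.18), with differences from -4.17 to 2.38. Hif1a, the oxygen-regulated factor, stood at 15.2 and 19.2 CPM against 132 and 133 CPM (log2 difference -2.95, SE 0.15, adjusted p = 1e-06), and the lactate exporter gene Slc16a3 at 9.35 and 7.95 CPM against 178 and 135 CPM (difference -4.17). Both were lower in both cMoP libraries. Car9, a carbonic anhydrase induced in hypoxia, was higher (2.18), Ankrd37, also induced in hypoxia, was lower (-3.58), and so were the glycolytic enzyme genes Pkm (-0.98) and Aldoa (-0.82). Of the 12 higher members only Car9 is named here.

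Markers of other cell types that the libraries could hold were summed. For OP9 stroma, 9 of 22 marker genes were tested, 6 were lower in cMoPs and none higher (7 lower by unadjusted p), and their summed level was 6.04 and 6.16 CPM in the cMoP libraries and 116 and 105 CPM in the monocyte libraries. Most of that was Acta2, smooth muscle actin, at 4.1 and 3.17 CPM against 87 and 74.7 CPM (difference -4.48), and without it the sums were 1.93 and 2.99 CPM in the cMoP libraries and 28.5 and 30.4 CPM in the monocyte libraries. Col1a1, the collagen gene, stood at 0.068 and 0.0456 CPM against 1.44 and 1.85 CPM, and Bgn, biglycan, at 0.068 and 0.1 CPM against 6.71 and 6.24 CPM. In each cMoP library 7 of the 9 stood under 1 CPM, so those passed the filter on low values through other libraries, which favours lower calls. Col4a1, a collagen of basement membranes, and Pdgfrb, a receptor for platelet-derived growth factor, lay the other way at 1.26 and 1.14 CPM against 0.312 and 1.03 CPM and 0.34 and 0.265 CPM against 0.0346 and 0.214 CPM. Neither passed, and without monocyte replicate 2 the list held 2 higher genes and 5 lower. The calls of Sparc, Cxcl12 and Fstl1 ended without single libraries (highest adjusted p = 0.14, 0.12 and 0.12), of which Sparc moved from -6.23 to -3.90 without cMoP replicate 1 and -8.57 without cMoP replicate 2 and Fstl1 from -5.06 to -3.24 without cMoP replicate 1 and -6.88 without cMoP replicate 2, and without cMoP replicate 1 the list held 3 lower genes. The part that stromal RNA has in the genes that were lower in cMoPs was not tested.

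Macrophage markers were lower in 11 of 15 cases and higher in none, also by unadjusted p, with a summed level of 269 and 233 CPM in the cMoP libraries and 1398 and 1641 CPM in the monocyte libraries and with 1 and 2 of the 15 at 0 reads in the cMoP libraries. In each cMoP library 6 of the 15 stood under 1 CPM, against 0 and 1 in the monocyte libraries. Such markers passed the filter on low values through other libraries, which favours lower calls. Adgre1, which encodes F4/80, stood at 22.5 and 20.2 CPM in cMoPs and 449 and 280 CPM in monocytes (difference -4.05), and Apoe and the complement gene C1qb differed by -4.47 and -3.09. Neutrophil markers were lower in 6 of 13 cases and higher in none (7 lower by unadjusted p), with a sum of 678 and 699 CPM in the cMoP libraries and 2231 and 2647 CPM in the monocyte libraries. Mmp8, the neutrophil collagenase, stood at 15.8 and 13.3 CPM against 1130.5 and 1520.1 CPM (log2 difference -6.50, SE 0.36, adjusted p = 1.5e-06 by limma-trend), and Cd177 differed by -4.28 and Retnlg by -2.87, while 7 markers, S100a8, S100a9 and Mmp9 among them, did not pass. For platelets, Ppbp gave 0 reads in cMoPs and 7118 in monocytes (at least 2956-fold lower, with monocyte libraries at 35.6 and 104 CPM), and Pf4 stood at 0.642 and 1.54 CPM against 77.6 and 91.1 CPM, with -5.77 without cMoP replicate 1 and -7.03 without cMoP replicate 2. These are 2 of 8 platelet markers, and the other 6 were not analysed here. Ppbp passed the filter on low values through monocyte libraries only, which favours a lower call. Of B cell genes 2 of 10 were tested and both were higher, Ighm at 208 and 208 CPM against 95.9 and 67.4 CPM and Cd79b at 44.3 and 47 CPM against 12.1 and 10.9 CPM. For erythroid cells Car1 was the sole gene tested, with 147 reads in cMoPs, mostly of replicate 2, and 0 in monocytes (at least 39.3-fold higher), and its call ended without cMoP replicate 2 or either monocyte replicate (highest adjusted p = 0.21 for Car1). Car1 passed the filter on low values through cMoP libraries only, which favours a higher call. In which cells of a library these marker transcripts lay was not tested.

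The same comparison on OP9-DLL1 stroma gave a like picture. There 7671 genes passed (57.4%), 3768 higher in cMoPs (28.2%) and 3903 lower (29.2%). Of the genes higher on OP9, 3109 were also higher on OP9-DLL1 (80.7% of the OP9 list and 82.5% of the other), and of those lower on OP9, 3088 were also lower (83.5% and 79.1%). The opposite call was found for 6 and 2 genes. The 2 stromas share no library, and across the 13374 genes, which are not independent replicates, Pearson's r between the differences was 0.91.

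**Figure D5:**
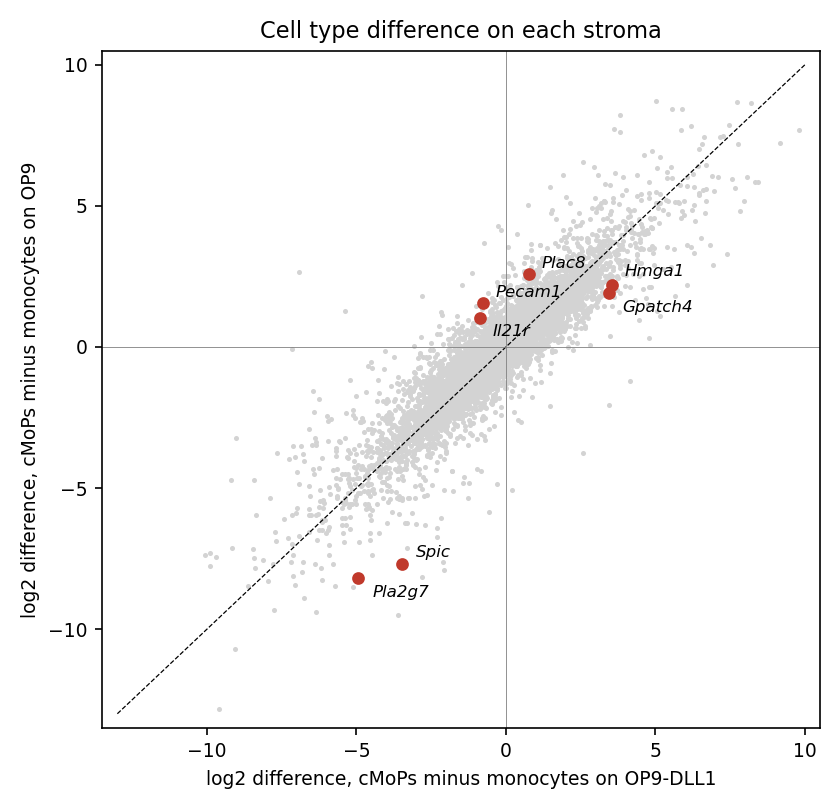
Log2 difference between cMoPs and monocytes on OP9 (y axis) against that on OP9-DLL1 (x axis), 1 point per gene, with the line of equal differences and the genes whose differences passed the test between stromas named. Most genes lie along the line (Pearson's r 0.91 across genes), and Pecam1, Il21r and Plac8 lie above it while Hmga1, Gpatch4, Pla2g7 and Spic lie below, Spic with a direction that turns with log2(CPM + 1).

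The difference between cell types itself differed between the stromas for 7 genes by the limma-trend interaction (0.0523%), 3 with the higher difference on OP9 (0.0224%) and 4 with the lower (0.0299%). Pecam1, an adhesion molecule of leukocytes and endothelium, was higher in cMoPs on OP9 at 20.3 and 20.9 CPM against 7.12 and 6.83 CPM and lower on OP9-DLL1 at 23.5 and 20.1 CPM against 38 and 36.4 CPM (difference of the differences 2.33, SE 0.21, adjusted p = 0.0094). Il21r, the IL-21 receptor, showed the same turn, with 34.3 and 28.3 CPM against 13.4 and 17.1 CPM on OP9 and 36 and 38.8 CPM and 65.8 and 71.4 CPM on OP9-DLL1. Plac8 was higher in cMoPs on both, by 2.57 on OP9 and 0.78 on OP9-DLL1. In these 3 genes the monocytes on plain OP9 were the lower group of monocytes. Hmga1, a chromatin protein of dividing cells, was higher in cMoPs by 2.21 on OP9 and 3.56 on OP9-DLL1, and Gpatch4 by 1.92 and 3.46. Pla2g7 was lower in cMoPs by -8.19 on OP9 and -4.96 on OP9-DLL1. Spic, a factor of red pulp macrophages, gave 0 reads in cMoPs on OP9 and 170 in monocytes (at least 70.6-fold lower), and stood at 11.4 and 10 CPM and 124 and 116 CPM on OP9-DLL1. Its difference of the differences was -4.19, and 1.95 with log2(CPM + 1), so its direction depends on how 0 reads are offset. All 7 calls between stromas ended without either cMoP library on OP9, with adjusted p of 0.059 to 0.26, and the count of such genes was 29 without monocyte replicate 1 on OP9 and 1124 without monocyte replicate 2.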

How the data were processed

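Libraries were made from small amounts of total RNA with a SMARTer kit, which does not mark strand, and read as 150 base pairs from both ends, per the labels' protocols. The authors deposited log2 CPM per gene for 8 libraries. Per the submitters' processing notes the tools were STAR 2.7.9a with the build mm10, featureCounts 2.0.3 of Subread, Salmon 1.5.2, bcl2fastq, limma and edgeR. The order of the steps, the annotation release and the filter on genes were not given in the sources used here. Fold changes and p-values in the table were not used.

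Of 13430 table rows the first per gene was kept (13388 genes), and 13374 that reached 1 CPM in 2 or more libraries were tested. Genes under 1 CPM in every library of a cell type passed this filter through the other cell type. That favours calls towards the cell type in which they are high. The log2 CPM of all 8 libraries were fitted with 1 mean per group in limma 3.58.1 (R 4.3.3, trend on, 4 residual degrees of freedom, two-sided). The procedure was tested on simulated data with the same dispersion for all genes and libraries. The wider spread of the monocyte pair on OP9 was not simulated. Whole reads recovered from the steps of 1 read served for floors (3 reads over a group), intervals (95%, exact binomial) and voom, which called 7603 genes. Alternatives were centring each library, no filter, a filter at 5 CPM, log2(CPM + 1), no trend, only the 4 OP9 libraries, voom with and without sample quality weights, a replicate block, and leaving out each library. PCR reads carry no molecular identifiers, so floors and intervals cover counting error only.

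The comparison, gene lists and markers were chosen with earlier results of these data known. Named genes are the 15 highest and 15 lowest that passed with a mean of 5 CPM or more in the higher group, no overlap and no predicted gene model, then Bcl6, Irf2, Notch1, Notch2, Nr4a1, Kit, Flt3 (not analysed here), Cd34, Csf1r, Ly6c2, Itgam and Cx3cr1, up to 4 members per list by adjusted p, and the genes that differed between stromas. Some members that this rule names are not reported here. Any other gene was named after its values were seen. Reads of similar genes (Ly6c1 and Ly6c2, Ccl2 and Ccl7, the Ms4a, Clec4a and class II families, ribosomal pseudogenes) may be shared, and so may those of overlapping genes, since strand was not marked. Positions are from GENCODE M21 (GRCm38), promoters from RefSeq (GRCm38.p6).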

Additional observations from a re-analysis of the deposited data

Results flagged for a closer look

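For 7 genes the difference between cMoPs and monocytes was itself different on OP9 and on OP9-DLL1, by the limma-trend interaction over 8 libraries. The difference of the differences (OP9 minus OP9-DLL1) was 2.33 for Pecam1 (SE 0.21, adjusted p = 0.0094), which turned from 1.56 on OP9 to -0.77 on OP9-DLL1. For Il21r it was 1.92 (SE 0.23, adjusted p = 0.03), which turned from 1.04 to -0.87. For Plac8 it was 1.78 (SE 0.14, adjusted p = 0.0052), with 2.57 on OP9 and 0.78 on OP9-DLL1. The monocyte libraries of Plac8 stood at 223 and 209 CPM on OP9 and 939 and 1012 CPM on OP9-DLL1, while its cMoP libraries stood at 1276 and 1281 CPM and 1726 and 1629 CPM. For Hmga1 the difference of the differences was -1.34 (SE 0.15, adjusted p = 0.025), with 2.21 and 3.56. For Gpatch4 it was -1.54 (SE 0.19, adjusted p = 0.03), with 1.92 and 3.46. In both genes the monocyte libraries were higher on OP9, Hmga1 at 150.2 and 132 CPM against 54 and 55.5 CPM on OP9-DLL1 and Gpatch4 at 56.6 and 70.6 CPM against 18.7 and 17.8 CPM. For Pla2g7 it was -3.23 (SE 0.35, adjusted p = 0.022), with cMoP libraries at 3.47 and 4.26 CPM on OP9 and 76.3 and 57.5 CPM on OP9-DLL1. For Spic it was -4.19 (SE 0.46, adjusted p = 0.022), a fitted value that depends on the offset given to 0 reads in the cMoP libraries on OP9. All 7 calls ended without the trend, and those of Spic and Pla2g7 also ended with voom on the recovered reads (adjusted p = 0.2 and 0.069).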

How the results depend on the processing

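The count of passing genes, 7550 with the full fit, ranged from 6329 to 7780 over the other settings, and no gene that passed in both fits changed direction under any setting. The 6329 came from the filter at 5 CPM, which left 9775 genes to test. Among these settings the lowest count on 13374 genes was 6555, with only the 4 OP9 libraries. Leaving out each OP9 library in turn gave 5500 to 7807 passing genes, 2736 to 4067 higher and 2764 to 3740 lower. The group left with 1 library was then assumed to vary like the others. In place of the 7 genes that differed between stromas, 24 did with log2(CPM + 1) and 0 to 1124 without single OP9 libraries. Without the trend all 7 calls ended (adjusted p of 0.058 to 0.23) and 1 other gene, Gm5086, was called. With voom on the recovered reads the calls of Spic (adjusted p = 0.2) and Pla2g7 (0.069) ended, and with sample quality weights that of Spic (0.14). The difference between stromas for Spic, -4.19, reversed to 1.95 with log2(CPM + 1). Between the cell types on OP9 the correlation of replicate deviations was 0.03, so no pairing by replicate number was seen there. Pairing of replicates across the stromas was not examined. A replicate block gave 7674 passing genes, 11 between stromas and 8 higher mitochondrially encoded genes in place of 5. With sample quality weights 48.3% of calls were higher, against 51.0%. Batf3, Dbf4, E2f1, Klf4, Lck, Mmp9 and S100a9 did not pass in the full fit but passed under some other settings. Each group has 2 libraries, so a difference near the spread of the monocyte pair, as in mitosis genes, cannot be resolved here, and at 1 read per 0.0151 to 0.0231 CPM genes near 0 reads have bounds only.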

Other observations

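Several gene families in clusters on 1 chromosome were lower in cMoPs nearly as a whole, families chosen after their values were seen. Of 10 tested Ms4a genes on chromosome 19, 9 were lower and Ms4a3 alone was higher (median -4.05). Within the cluster the difference was 7.83 for Ms4a3, -2.69 for Ms4a6d, the nearest tested member, and -7.63 for Ms4a4a. All 8 tested Clec4 lectin genes on chromosome 6 were lower (median -3.59), as were all 10 genes of the Ifi200 cluster on chromosome 1 (median -3.67). Of 7 Cd300 genes on chromosome 11, 6 were lower and none higher (median -2.22). Among the 6, Cd300lg (-1.67) lies outside the cluster, at chr11:102041509-102055620. Of 7 Slfn genes on chromosome 11, 5 were lower and Slfn9 was higher (median -2.47). These families have similar members, and reads may be shared among them.

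Other groups, also chosen after their values were seen, were higher in cMoPs as a whole or nearly so. All 20 cytosolic aminoacyl-tRNA synthetase genes, which charge tRNAs for translation, were higher (median 1.06), as were all 8 subunit genes of the chaperonin that folds actin and tubulin (median 1.29) and 17 of 19 nuclear pore genes, with none lower (median 1.38). Background shares were 28.8% higher and 27.7% lower, and groups chosen this way cannot be tested against them.

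Classes of transcript differed. Of 1507 processed pseudogenes 36.8% were higher and 8.69% lower, and of 10737 protein coding genes 29.4% were higher and 29.5% lower. Processed pseudogenes may share reads with the genes they resemble, ribosomal protein genes among them, and the part of such reads was not tested. Of 216 antisense genes 5.56% were higher and 35.6% lower, and of 293 transcripts of the GENCODE class TEC 2.73% were higher and 41.6% lower. Of 32 sense intronic genes 6.25% were higher and 50.0% lower. The kit does not mark strand, so reads of antisense and intronic genes cannot be told from those of the genes they overlap.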
